A study of Mus musculus with 15 samples.

Results

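The granule protease and neutrophil progenitor genes are 10 genes of the neutrophil lineage, Mpo, Elane, Prtn3, Ctsg, Ms4a3, Cebpe, Ltf, Camp, Ngp and Csf3r. They were taken by name, through the platform's gene symbols, from a table of 45101 microarray probe sets. The rule uses names only, and the 10 names were drawn up with earlier results of these data known. Of the 10, 9 were found, each with exactly 1 probe set, among 18194 genes with a probe set of their own; Cebpe was not listed. The early genes are the granule genes Mpo, Elane, Prtn3 and Ctsg, with Ms4a3 counted among them as a progenitor marker. The late granule genes are Ltf, Camp and Ngp, and Csf3r is a cytokine receptor.

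The cells were LSK cells, bone marrow cells of C57BL6 mice that lack lineage markers and carry Sca1 and Kit, a population that holds the blood stem cells and the earliest progenitors. Cells of every group, the controls included, were infected outside the body with a gamma-retrovirus that encodes Cre and GFP, and GFP-positive cells were sorted, so each array reports transduced cells after culture with stem cell factor, thrombopoietin and Flt3 ligand. The groups differ at Apc, a scaffold protein through which beta-catenin is sent for destruction, which keeps Wnt signalling low. They are wild type (wt/wt, 6 arrays), 15lox/15lox (both alleles floxed, 3 arrays), 15lox/1638N (a floxed allele over the hypomorphic 1638N allele, 3 arrays) and 15lox/1572T (a floxed allele over the hypomorphic 1572T allele, 3 arrays). The stated question is what Wnt signals do in blood-forming cells. The labels give no age and no time in culture, and do not say whether arrays of a group came from separate mice, so the p-values measure the spread between these arrays, which may be technical.

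Values are log2 levels. The median of an array lay between 6.65 and 6.84, and precision is limited by how few arrays there are. The fit used wild-type arrays 4 to 6 and the 9 mutant arrays. Wild-type arrays 1 to 3 were left out because their mean lay within 0.05 of the mean of arrays 4 to 6 at 96.7% of probe sets, against 20.3% to 25.6% for a mutant group, and because they hold 3 equal values at 18.2% of probe sets. By an Xist level above 11, 0 of the 3 wild-type arrays in the fit, 2 of 3 15lox/15lox arrays, 1 of 3 15lox/1638N arrays and 1 of 3 15lox/1572T arrays were of female type. The targeted gene, Apc, was read at its probe set of lowest p in 15lox/1638N against wild type, a choice that favours a low p there. At that probe set Apc differed from wild type by -3.96 in 15lox/15lox (adjusted p = 8.9e-07) and -1.20 in 15lox/1638N (adjusted p = 0.0030). In 15lox/1572T it differed by -0.93, which did not pass (adjusted p = 0.10). Its probe sets disagreed, since the one with the highest mean stood 0.77 higher in 15lox/15lox (adjusted p = 0.013). The Wnt target Axin2 differed by 4.77, 3.86 and 1.20 in the same order, with adjusted p of 1.9e-05, 0.00023 and 0.45. The last passed the test without 15lox/1572T array 1, at 1.66 (adjusted p = 0.032). It did not pass in 20 of 21 alternative fits, where it fell as low as 0.72 and its adjusted p reached 0.87. Kit and Cd34, which mark stem and progenitor cells, were measured and passed the test in no mutant genotype; Ly6a, which encodes Sca1, was not listed.

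Neutrophils store their proteins in granules that form in order as the cell matures. The azurophil granules form first, in promyelocytes, and hold myeloperoxidase (Mpo) and the serine proteases neutrophil elastase (Elane), proteinase 3 (Prtn3) and cathepsin G (Ctsg). Specific granules follow, with lactoferrin (Ltf), cathelicidin (Camp) and neutrophilic granule protein (Ngp), and their genes depend on the transcription factor C/EBP epsilon (Cebpe). Ms4a3 encodes a membrane protein that is a marker of granulocyte-monocyte progenitors, and Csf3r encodes the receptor of the cytokine G-CSF, which drives neutrophil production.

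The promoters of 4 of these genes are shown, those of Prtn3 and Ms4a3 because these 2 genes passed the test, that of Elane because it lies next to Prtn3 on the chromosome, and that of Ngp as a late gene for contrast. All 9 measured genes matched a RefSeq promoter of GRCm38.p6, each running from 250 bases before the start of the gene to 50 bases after it. The 4 printed here are Prtn3 (chr10:79879417-79879716, plus strand), Elane (chr10:79886062-79886361, plus strand), Ms4a3 (chr19:11640802-11641101, minus strand) and Ngp (chr9:110419558-110419857, plus strand). They read 5′ to 3′ along the gene's own strand, and capitals mark matches to the motifs named in the next paragraph.
Prtn3: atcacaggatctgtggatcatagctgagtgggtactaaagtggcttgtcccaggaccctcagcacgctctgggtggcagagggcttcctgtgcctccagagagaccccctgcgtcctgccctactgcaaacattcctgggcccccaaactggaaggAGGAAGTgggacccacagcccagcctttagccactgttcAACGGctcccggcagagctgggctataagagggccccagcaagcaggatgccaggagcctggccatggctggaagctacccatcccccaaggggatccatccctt
Elane: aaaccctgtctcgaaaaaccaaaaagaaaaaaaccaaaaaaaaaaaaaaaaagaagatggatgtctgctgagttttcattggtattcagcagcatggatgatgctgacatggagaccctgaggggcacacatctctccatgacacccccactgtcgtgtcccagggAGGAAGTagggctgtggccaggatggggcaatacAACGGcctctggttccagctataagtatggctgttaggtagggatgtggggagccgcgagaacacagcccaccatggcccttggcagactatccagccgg
Ms4a3: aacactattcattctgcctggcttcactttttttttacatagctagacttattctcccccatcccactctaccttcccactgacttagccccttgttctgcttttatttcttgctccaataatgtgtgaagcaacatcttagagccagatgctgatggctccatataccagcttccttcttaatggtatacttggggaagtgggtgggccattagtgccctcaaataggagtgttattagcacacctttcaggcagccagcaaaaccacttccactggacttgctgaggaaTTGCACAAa
Ngp: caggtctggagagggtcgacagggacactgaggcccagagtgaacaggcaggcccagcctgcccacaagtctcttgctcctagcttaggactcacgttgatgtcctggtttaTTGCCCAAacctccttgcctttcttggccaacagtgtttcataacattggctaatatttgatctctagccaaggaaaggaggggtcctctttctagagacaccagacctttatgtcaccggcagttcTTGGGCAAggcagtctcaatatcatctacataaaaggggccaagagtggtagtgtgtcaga

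5 short motifs were searched on both strands, each a common form of the site of a factor of this lineage or of Wnt signalling. The ETS word AGGAAGT, of the family that includes PU.1, was in 4 of the 9 promoters (Mpo, Elane, Prtn3 and Ctsg) and in 9.35% of 32851 RefSeq promoters of the same length. In Elane and Prtn3 it began at -84 and -94 from the start site. The Myb word AACGG was in the same pair, at -50 and -55, and in 17.4% of all promoters. The C/EBP word TTGCNNAA was in Ms4a3, Ltf and Ngp, and in 10.8% of all promoters. In Ms4a3 it began at +42, inside the transcribed part, and in Ngp there were matches at -138 and -11. The Runx word TGTGGT was in Ctsg and Ltf (16.8% of all promoters), and a Lef or Tcf word (CTTTG followed by AA, AT, TA or TT) was in Mpo and Ctsg (16.9%). The promoters of Camp and Csf3r held none of the words. No 2 of these words overlapped in these promoters, and a match is a description of the letters, not of binding.

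Among the early genes, Prtn3 and Ms4a3 were higher in 15lox/1638N than in wild type, and these were the 2 of 9 member genes that passed the test in that genotype. Of all probe sets, 1.38% passed there, and 0.548% passed as higher. The arrays of this genotype did not overlap with wild type, and were higher, for 2 of 9 members (Prtn3 and Ms4a3) and 12.3% of probe sets. In 15lox/15lox 0 of 9 passed in limma's test, against 1.49% of all probe sets, and 1 of 9 (Prtn3) had an unadjusted p under 0.05, as had 10.2% of all probe sets. Prtn3 was also the 1 member whose 15lox/15lox arrays were all above wild type, which held for 6.92% of probe sets. In 15lox/1572T 0 of 9 passed, against 0.0288% of all probe sets, and 2 of 9 (Prtn3 and Ms4a3) had an unadjusted p under 0.05, as had 6.84% of all probe sets. Arrays of that genotype were all above wild type for 3 of 9 (these and Mpo) and for 4.74% of probe sets. Since the samples are bulk RNA, more cells of a type and more RNA per cell cannot be told apart in any of these values.

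Prtn3 encodes proteinase 3, a protease of azurophil granules. Its level was 13.33, 13.34 and 13.36 on the wild-type arrays, and 13.60, 13.71 and 13.83 on the 15lox/15lox arrays. The 15lox/1638N arrays read 13.74, 13.77 and 13.79, and the 15lox/1572T arrays 13.67, 13.45 and 13.59. All 9 mutant arrays lay above all 3 wild-type arrays, as they did at 0.871% of probe sets. They also lay above the highest of the 6 wild-type arrays, 13.43. The share of probe sets for that was not counted, and the arrays left out of the fit are no independent support. The wild-type values were close together (SD 0.015, n = 3).

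The difference of Prtn3 from wild type was 0.42 in 15lox/1638N (SE 0.089, 95% interval 0.23 to 0.62, 1.34-fold, adjusted p = 0.046). In 15lox/15lox it was 0.37 (interval 0.18 to 0.56, 1.29-fold), which missed the threshold with an adjusted p of 0.083. In 15lox/1572T it was 0.23 (interval 0.03 to 0.42, adjusted p = 0.65). The 15lox/1638N value stood near the threshold. Its adjusted p was above 0.05 in 12 of 21 alternative fits, among them the fits without wild-type array 4 (0.15), 5 (0.14) or 6 (0.14), without 15lox/1638N array 1 (0.13), 2 (0.17) or 3 (0.082), without 15lox/15lox array 1 (0.055) or 2 (0.053), without 15lox/1572T array 1 (0.054), and with sex type as a covariate (0.078). The difference itself stayed between 0.38 and 0.44 in all 21. With sex type in the fit, the 15lox/15lox difference was 0.29 (adjusted p = 0.40), and with all 6 wild-type arrays it was 0.37 (adjusted p = 0.0047). Since the mean of wild-type arrays 1 to 3 lies on that of arrays 4 to 6, a pass with all 6 is no independent support, here or for Ms4a3.

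Ms4a3, the marker of granulocyte-monocyte progenitors, separated the genotypes in another way. Its level was 12.36, 12.41 and 11.86 on the wild-type arrays and 12.16, 12.31 and 12.04 on the 15lox/15lox arrays, and these ranges overlapped. The 15lox/1638N arrays read 12.95, 13.14 and 12.92, and the 15lox/1572T arrays 12.96, 12.72 and 12.84. All 6 arrays of the hypomorphic genotypes lay above all wild-type and 15lox/15lox arrays, while wild-type array 6 was the lowest of all. The share of all probe sets with this pattern was not counted, so how unusual it is cannot be told.

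The difference of Ms4a3 from wild type was 0.79 in 15lox/1638N (SE 0.15, 95% interval 0.47 to 1.12, 1.73-fold, adjusted p = 0.028). In 15lox/1572T it was 0.63 (interval 0.31 to 0.95, 1.55-fold, adjusted p = 0.33). In 15lox/15lox it was -0.04 (interval -0.36 to 0.28, adjusted p = 0.96). The 15lox/1638N value ended above the threshold in 6 of 21 alternatives. These were the fits without wild-type array 4 (0.87, adjusted p = 0.065) or 6 (0.62, adjusted p = 0.063), without 15lox/1638N array 1 (0.82, adjusted p = 0.081) or 2 (0.73, adjusted p = 0.12), with sex type as a covariate (0.79, adjusted p = 0.058) and on these 2 groups only (0.79, adjusted p = 0.051).

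Between the mutant genotypes, Ms4a3 was 0.83 lower in 15lox/15lox than in 15lox/1638N (log2 difference -0.83, interval -1.16 to -0.51) and 0.67 lower than in 15lox/1572T (log2 difference -0.67, interval -0.99 to -0.35). Both differences missed the threshold, with adjusted p of 0.061 and 0.070. Without wild-type array 6, which enters only through the shared spread, they passed it (adjusted p = 0.026 and 0.016). They also passed it with all 6 wild-type arrays (0.013 and 0.020). In 16 of 21 alternative fits each difference still missed it, with an adjusted p of up to 0.30 and 0.26. The hypomorphic genotypes differed from each other by 0.16 (interval -0.16 to 0.49). In limma's test 0 of 9 member genes passed in any of the 3 comparisons between mutant genotypes, against 0.186% of probe sets for 15lox/15lox with 15lox/1638N, 1% for 15lox/15lox with 15lox/1572T and 0.171% for 15lox/1638N with 15lox/1572T; 1, 1 and 2 of 9 had an unadjusted p under 0.05, as had 8.67%, 8.03% and 7.72% of all probe sets. Arrays of 15lox/15lox were all below those of 15lox/1638N for 2 of 9 (Ms4a3 and Ltf) and 8% of probe sets, and all below those of 15lox/1572T for 1 of 9 (Ms4a3) and 5.28%. Arrays of 15lox/1638N were all above those of 15lox/1572T for 1 of 9 (Prtn3) and 7.04%.

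**Figure D1:**
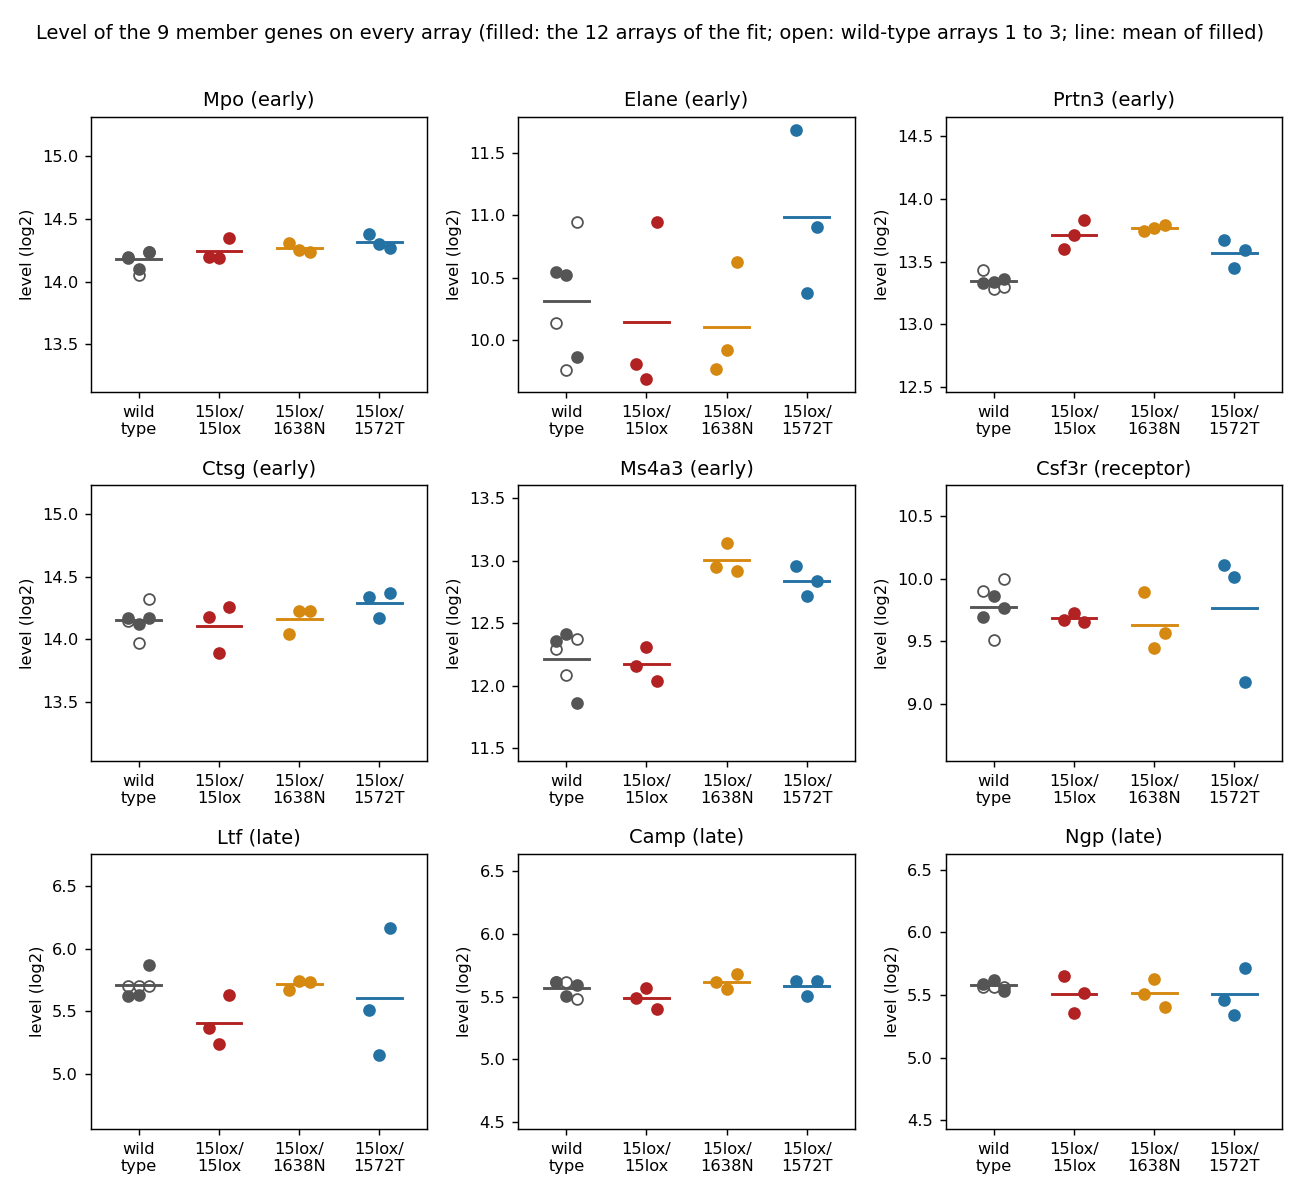
Level (log2) of each of the 9 measured genes on every array, grouped by Apc genotype on the horizontal axis. Filled points are the 12 arrays of the fit, open points are wild-type arrays 1 to 3, the line is the mean of the filled points, and each panel has its own vertical range, at least 2 units. The Prtn3 points of all mutant genotypes lie above the wild-type points, and the Ms4a3 points of 15lox/1638N and 15lox/1572T lie above the rest.

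Mpo encodes myeloperoxidase, which makes hypochlorous acid in the phagosome. Its level was 14.19, 14.10 and 14.24 in wild type, 14.20, 14.19 and 14.35 in 15lox/15lox, 14.31, 14.25 and 14.24 in 15lox/1638N, and 14.38, 14.30 and 14.27 in 15lox/1572T. The 15lox/1572T arrays were all above the wild-type arrays, by little, and the other groups overlapped or touched them. The differences from wild type were 0.07 (interval -0.11 to 0.25), 0.09 (interval -0.09 to 0.27) and 0.14 (interval -0.04 to 0.32) in 15lox/15lox, 15lox/1638N and 15lox/1572T.

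Ctsg encodes cathepsin G, a serine protease of the same granules. Its level was 14.17, 14.12 and 14.17 in wild type, 14.18, 13.89 and 14.26 in 15lox/15lox, 14.04, 14.23 and 14.23 in 15lox/1638N, and 14.34, 14.17 and 14.37 in 15lox/1572T. Every mutant group overlapped or touched wild type, and 15lox/15lox array 2 was the lowest of the 12. The differences were -0.04 (interval -0.29 to 0.20), 0.01 (interval -0.23 to 0.26) and 0.14 (interval -0.10 to 0.38), so the intervals of Mpo and Ctsg reach no further than 0.38 in either direction. The signals of Mpo and Ctsg were near the top of the scale, where the highest mean of any probe set was 15.31, and whether that bounds how far they could rise was not tested.

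Elane encodes neutrophil elastase, and its values varied most. They were 10.55, 10.52 and 9.87 in wild type, 9.81, 9.69 and 10.95 in 15lox/15lox, and 9.77, 9.92 and 10.63 in 15lox/1638N. In 15lox/1572T they were 11.68, 10.38 and 10.91, so that array 1 of that genotype was the highest of all, and every mutant group overlapped wild type. The SD within groups was 0.56, against a median of 0.17 over all probe sets. The difference was 0.68 in 15lox/1572T (interval -0.20 to 1.55, adjusted p = 0.80), -0.16 in 15lox/15lox (interval -1.04 to 0.71) and -0.20 in 15lox/1638N (interval -1.08 to 0.67). Single arrays moved these values. In 15lox/1572T the difference was 0.33 without its array 1, 0.98 without its array 2 and 0.46 without wild-type array 6 (0.42 with sex type as a covariate). In 15lox/15lox it was 0.01 without its array 1, 0.07 without array 2, -0.56 without array 3, and -0.04, -0.06 and -0.38 without wild-type array 4, 5 or 6 (-0.68 with sex type). In 15lox/1638N it was -0.04, -0.11 and -0.46 without its array 1, 2 or 3, and -0.08, -0.10 and -0.43 without wild-type array 4, 5 or 6 (-0.46 with sex type). None of these passed the test.

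Csf3r, the G-CSF receptor, read 9.69, 9.86 and 9.76 in wild type, 9.67, 9.73 and 9.65 in 15lox/15lox, 9.89, 9.44 and 9.56 in 15lox/1638N, and 10.11, 10.01 and 9.18 in 15lox/1572T. The last genotype held both the highest and the lowest array. Differences from wild type were -0.09 (interval -0.55 to 0.37), -0.14 (interval -0.60 to 0.32) and -0.01 (interval -0.47 to 0.46). Without 15lox/1572T array 3 the last of them was 0.29 (adjusted p = 0.41).

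The late genes had signals close to background. As a measure of background, 44 probe sets of odorant receptor genes (Olfr), best known from sensory neurons of the nose, had mean levels with a median of 4.56 and a 95th percentile of 5.35. The means over the 12 arrays were 5.61 for Ltf, 5.57 for Camp and 5.53 for Ngp, with 1, 2 and 2 of the 44 Olfr probe sets above them. All 6 other measured genes stood above every Olfr probe set. At such signals a change of the late genes may not be detectable.

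Ltf encodes lactoferrin, the iron-binding protein of specific granules. It read 5.62, 5.63 and 5.87 in wild type, 5.36, 5.24 and 5.63 in 15lox/15lox, 5.67, 5.74 and 5.74 in 15lox/1638N, and 5.51, 5.15 and 6.17 in 15lox/1572T. All groups overlapped wild type, and the 15lox/1572T arrays spread most. Differences were -0.30 (interval -0.76 to 0.17), 0.01 (interval -0.45 to 0.47) and -0.10 (interval -0.56 to 0.36). Without 15lox/1572T array 2 the last was 0.13 (adjusted p = 0.94).

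Camp encodes the precursor of the antimicrobial peptide cathelicidin. It read 5.62, 5.50 and 5.59 in wild type, 5.49, 5.57 and 5.40 in 15lox/15lox, 5.62, 5.56 and 5.68 in 15lox/1638N, and 5.63, 5.50 and 5.63 in 15lox/1572T, with all groups overlapping. Differences were -0.08 (interval -0.27 to 0.10), 0.05 (interval -0.14 to 0.23) and 0.02 (interval -0.17 to 0.20).

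Ngp encodes a granule protein of the cystatin and cathelicidin kind. It read 5.59, 5.62 and 5.53 in wild type, 5.65, 5.36 and 5.52 in 15lox/15lox, 5.51, 5.63 and 5.40 in 15lox/1638N, and 5.46, 5.34 and 5.72 in 15lox/1572T, again with all groups overlapping. Differences were -0.07 (interval -0.33 to 0.19), -0.06 (interval -0.32 to 0.19) and -0.07 (interval -0.33 to 0.18).

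**Figure D2:**
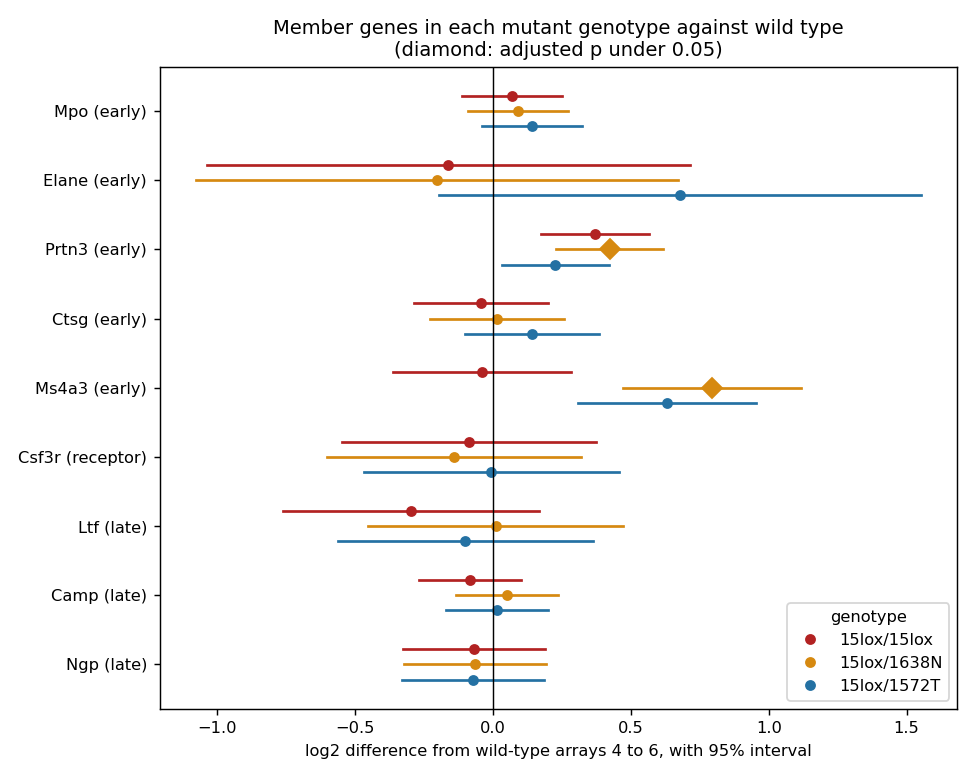
Log2 difference of each gene in each mutant genotype from wild-type arrays 4 to 6 (horizontal axis), with its 95% interval from limma as a line. Diamonds mark an adjusted p under 0.05, which are Prtn3 and Ms4a3 in 15lox/1638N; the Elane intervals are the widest, and those of Camp and Mpo are narrow.

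Set side by side, the 5 early genes had median differences of -0.04 in 15lox/15lox (range -0.16 to 0.37), 0.09 in 15lox/1638N (range -0.20 to 0.79) and 0.23 in 15lox/1572T (range 0.14 to 0.68). The 3 late genes had medians of -0.08 (range -0.30 to -0.07), 0.01 (range -0.06 to 0.05) and -0.07 (range -0.10 to 0.02). The median over all probe sets was -0.03, -0.00 and -0.01. In 15lox/1572T all 5 early genes stood above 0 and 0 passed the test. The 3 comparisons share the same wild-type arrays.

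Array by array, the mean of the early genes, each counted from its wild-type mean, was 0.57, 0.17 and 0.36 in 15lox/1572T, 0.12, 0.22 and 0.32 in 15lox/1638N, and -0.05, -0.08 and 0.25 in 15lox/15lox. The wild-type arrays stood at 0.08, 0.06 and -0.14. The mean of the late genes was -0.09, -0.29 and 0.22 in 15lox/1572T, -0.02, 0.03 and -0.01 in 15lox/1638N, and -0.12, -0.23 and -0.10 in 15lox/15lox, against -0.01, -0.03 and 0.05 in wild type. The early mean was above the late mean on all 9 mutant arrays, by 0.07 to 0.65. It differed by 0.09 on wild-type arrays 4 and 5 and by -0.19 on array 6. Values are counted from the mean of these 3 arrays, so the 3 could not all be above 0, and they are no comparison for the mutant arrays. Wild-type arrays 1 to 3, left out of the fit, stood at -0.01, -0.22 and 0.23, and the last lies within the mutant range. This describes chosen genes, and the late ones were near background.

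Within the genotypes, pairs of early genes differed in how they ran from array to array. With each group's mean removed, the correlation over the 12 arrays was 0.77 between Elane and Prtn3, 0.62 between Elane and Ctsg, 0.56 between Mpo and Prtn3, 0.45 between Prtn3 and Ctsg, 0.39 between Mpo and Elane and 0.33 between Mpo and Ctsg. Ms4a3 had 0.21 with Elane, 0.03 with Prtn3, -0.16 with Ctsg and -0.49 with Mpo. Without removing group means it was 0.05 for Elane and Prtn3, whose group means follow different orders. Among the others, Ltf and Ngp had 0.68 and Ltf and Csf3r -0.78. These points share arrays, and they are given as descriptions.

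The other genes of the same programmes gave the setting. Of 15 other early granule and progenitor genes, 11 were measured and 0 passed limma's test in any genotype, with medians of -0.02 in 15lox/15lox, 0.03 in 15lox/1638N and 0.03 in 15lox/1572T. At the probe set of highest mean, the genes of the list ranged from -0.22 to 0.14, -0.24 to 0.58 and -0.08 to 0.92 in the same order. The list includes Ctsc, the peptidase that activates the granule proteases, with 0.02, 0.13 and 0.06 at its probe set of highest mean. Its other probe sets stood at -0.09, 0.23 and -0.18, and at -0.16, -0.50 and -0.44. Cst7, an inhibitor of such peptidases, stood at -0.01, 0.03 and -0.00. Of 23 other late granule and neutrophil genes, 19 were measured, and 7 of these (S100a8, S100a9, Chil3, Cd177, Olfm4, Ceacam10 and Itgam) had a mean below the 95th percentile of the Olfr probe sets. Anxa1, which encodes the membrane-binding protein annexin A1, rose by 0.98 in 15lox/15lox (adjusted p = 0.00047) at its brighter probe set; the other stood at -0.05, and the mean of both gave 0.46 (adjusted p = 0.31). The other 18 did not pass there, and 0 of 19 passed in 15lox/1638N or 15lox/1572T.

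Of 16 transcription factors and related regulators of granulopoiesis, 1 regulator rose in 15lox/15lox and 0 genes passed in the other genotypes. It was Trib1, which encodes a pseudokinase that promotes degradation of C/EBP alpha, with 1.05 (adjusted p = 0.013) at its brighter probe set and 0.60 (adjusted p = 0.044) at the other. At the brighter one it missed the threshold with sex type as a covariate (1.01, adjusted p = 0.090), without wild-type array 6 (0.90, adjusted p = 0.061) and without 15lox/15lox array 1 (1.01, adjusted p = 0.055) or 2 (0.93, adjusted p = 0.066). Cebpa, which encodes C/EBP alpha, stood at 0.11, 0.17 and 0.13, and Gfi1, a repressor needed for neutrophils, at -0.04, 0.22 and 0.55, in 15lox/15lox, 15lox/1638N and 15lox/1572T. Of 11 cytokine receptor and signalling genes, 1 fell in 15lox/1638N and 0 passed elsewhere. It was Socs3, a brake on signalling from the G-CSF receptor, with -1.89 at 1 of its probe sets (adjusted p = 0.020) and -1.34 and -0.51 at the others (adjusted p = 0.079 and 0.17). That fall missed the threshold without wild-type array 4 (-1.81, adjusted p = 0.092) or 6 (-1.83, adjusted p = 0.084) and without 15lox/1638N array 1 (-1.85, adjusted p = 0.077) or 2 (-1.68, adjusted p = 0.087).

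Markers of other cells were measured beside these genes. Of 8 measured monocyte markers, 3 rose in 15lox/15lox (Cd14, Ccr2 and F13a1), 2 in 15lox/1638N (Cd14 and Ccr2) and 1 in 15lox/1572T (Cd14). For this and every other list, the share of all probe sets that passed was 1.49%, 1.38% and 0.0288% in the same order. A list gene counts where any of its probe sets passed, so its counts are not on the same footing as these shares. Cd14, a receptor for bacterial lipopolysaccharide, rose by 2.45, 3.56 and 2.53 in these genotypes (adjusted p = 3.6e-05, 3.0e-05 and 0.0012). Ccr2, a chemokine receptor of monocytes, rose by 1.15 in 15lox/15lox (adjusted p = 0.00093) and 0.90 in 15lox/1638N (adjusted p = 0.010) at its probe set of highest mean, and the latter missed the threshold without wild-type array 4 (adjusted p = 0.055) or 6 (adjusted p = 0.051) or 15lox/1638N array 1 (adjusted p = 0.051). F13a1, a transglutaminase of monocytes, rose by 1.63 in 15lox/15lox (adjusted p = 0.017) and missed the threshold without wild-type array 5 (1.42, adjusted p = 0.086) and with sex type as a covariate (1.28, adjusted p = 0.087). The mean level of the 8 ran from 8.87 to 9.11 on wild-type arrays, 9.40 to 9.95 in 15lox/15lox, 9.52 to 9.90 in 15lox/1638N and 9.37 to 9.62 in 15lox/1572T. The defining macrophage marker Adgre1 was below the 95th percentile of the Olfr probe sets. Not every marker of the list stood higher. In 15lox/15lox, 15lox/1638N and 15lox/1572T, Fcgr1 stood at -0.41, -0.46 and -0.19 at its brighter probe set. Cd68 stood at -0.05, -0.19 and -0.18, and Adgre1 at -0.12, -0.20 and -0.08. Cx3cr1 and Ms4a6c stood higher at their brighter probe sets without passing. The mean of the list stood higher in every mutant genotype, and so did Prtn3, so no mutant genotype sets the one apart from the other. Cd14 had the largest rise of the list in each. The part of these markers in the Prtn3 result was not tested.

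Of 11 measured mast cell and basophil markers 0 passed limma's test in any genotype. Their mean level ran from 8.64 to 9.05 in wild type, 8.52 to 9.01 in 15lox/15lox, 8.44 to 8.87 in 15lox/1638N and 9.16 to 9.61 in 15lox/1572T. It was thus highest in the genotype in which Elane stood highest, where Gzmb (-0.40) and Tpsab1 (-0.06) stood lower and the rest higher. The megakaryocyte and erythroid lists too had their highest array in 15lox/1572T. Their means there ran from 10.19 to 10.56 and from 6.50 to 6.91. In wild type they ran from 9.88 to 10.29 and from 6.07 to 6.67. Mcpt4 and Tpsab1 were below the Olfr 95th percentile, and the part of these lists was not tested. Of 5 measured eosinophil markers 0 passed, and Prg2, Epx and Prg3 were below the same level. Of 8 lymphoid progenitor markers, 1 rose and 2 fell in 15lox/15lox, 4 fell in 15lox/1638N and 0 passed in 15lox/1572T. The marker that rose was Il7r, the interleukin 7 receptor, with 4.11 in 15lox/15lox (adjusted p = 0.0013). It stood at 2.35 in 15lox/1638N (adjusted p = 0.050, just above the threshold) and 1.47 in 15lox/1572T (adjusted p = 0.60). In 15lox/1638N it passed without wild-type array 6 (2.92, adjusted p = 0.021). It did not pass there in 14 of 21 alternative fits, with an adjusted p of up to 0.18. Ccr9, a chemokine receptor, fell by 2.68 in 15lox/15lox (adjusted p = 0.0033) and by 2.92 in 15lox/1638N (adjusted p = 0.0041). The mean level of the lymphoid list ran from 8.97 to 9.44 in wild type, 8.34 to 8.91 in 15lox/15lox, 7.83 to 8.43 in 15lox/1638N and 8.23 to 8.96 in 15lox/1572T, with Rag1 below the Olfr 95th percentile. Of 7 dendritic cell markers, 1 fell in 15lox/15lox, 4 fell in 15lox/1638N and 0 passed in 15lox/1572T, with medians of -1.59, -1.85 and -1.43. Their mean level ran from 9.41 to 10.91 in wild type, 8.20 to 9.27 in 15lox/15lox, 7.59 to 8.22 in 15lox/1638N and 8.34 to 9.31 in 15lox/1572T. The part of these markers in the member results was not tested. Megakaryocyte, erythroid and stem cell lists had 0 calls by limma in any genotype.

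**Figure D3:**
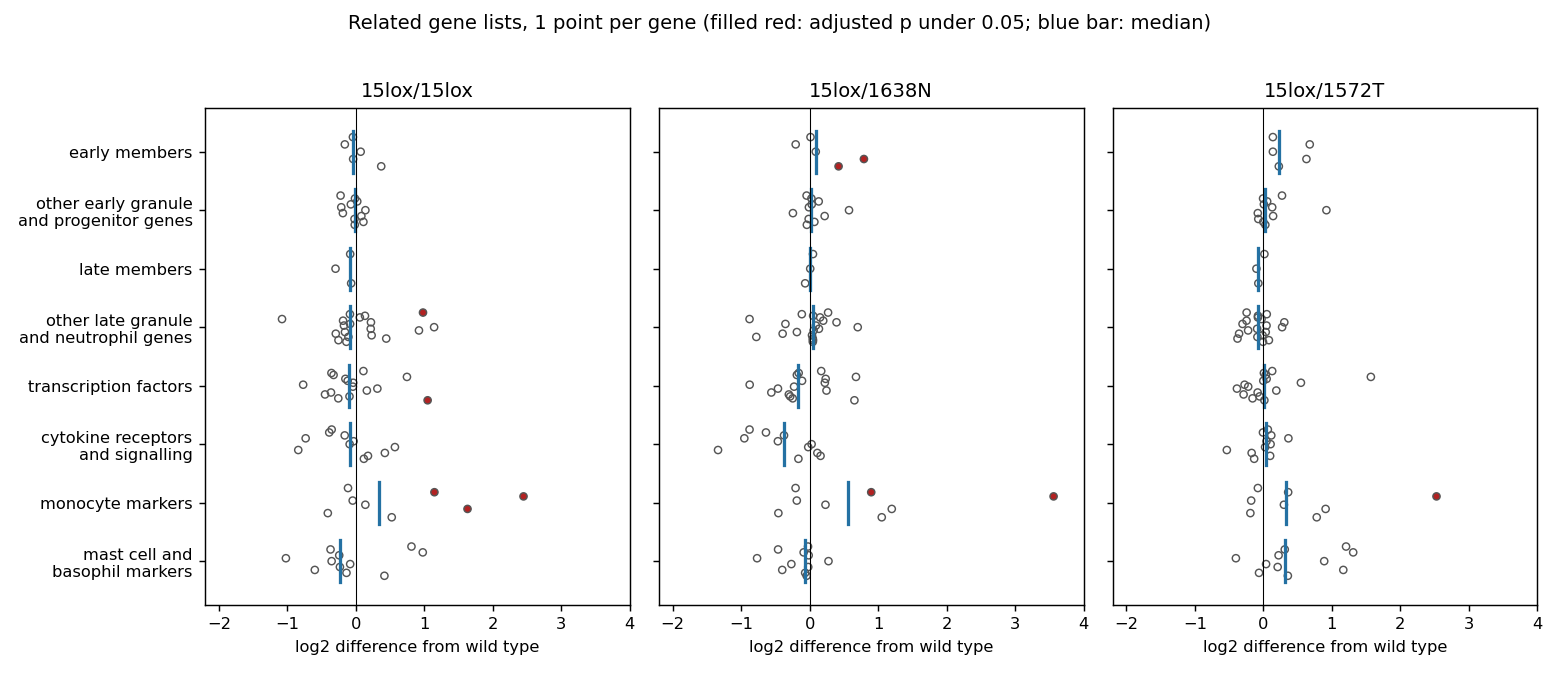
Log2 difference from wild type (horizontal axis) in each mutant genotype for 8 gene lists, with 1 point per gene at the probe set with the highest mean, filled red where the adjusted p was under 0.05, and a blue bar at the list's median. The medians of the granule lists lie between -0.08 and 0.23, their filled points are Prtn3 and Ms4a3 in 15lox/1638N and Anxa1 in 15lox/15lox, and the filled points of the monocyte list reach 3.56; Socs3 passed at another of its probe sets and is open here.

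On the chromosome, Prtn3 and Elane are next to each other in RefSeq's GRCm38.p6 order, between Plppr3 and Cfd on chromosome 10. Plppr3, which encodes a membrane protein related to lipid phosphatases, stood higher by 0.72 in 15lox/15lox (adjusted p = 0.044) and by 0.72 in 15lox/1638N (adjusted p = 0.048), and by 0.46 in 15lox/1572T (adjusted p = 0.58); it was named after its values were seen. Of 21 alternative fits, 13 and 11 left the first 2 values above the threshold, and the differences stayed between 0.62 and 0.89. The libraries that did so on removal in both genotypes included wild-type arrays 4 (adjusted p = 0.21 and 0.17) and 6 (0.17 and 0.18), 15lox/15lox array 1 (0.14 and 0.066), each 15lox/1572T array (0.055 to 0.061 and 0.054 to 0.064) and each 15lox/1638N array (0.052 to 0.071 and 0.094 to 0.12); in 15lox/15lox its own arrays 2 (0.063) and 3 (0.12) did so too. Ctsg lies beside Mcpt8, a basophil protease gene, which stood at -0.23, -0.02 and 0.21 and passed in no genotype. Ms4a3 lies beside Ms4a2, which encodes the beta chain of the high-affinity IgE receptor and stood at -0.60, -0.40 and 1.17, and also passed in no genotype. Ltf, Camp and Ngp are all on chromosome 9 and are not neighbours.

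The genes whose levels ran most like each member over the 12 arrays were found among 19476 probe sets above the median level, by Pearson's r. For Prtn3 they were Amot (0.94), Bace1 (0.93) and Myo5a (0.92), for Ms4a3 Polr1e, Vkorc1l1 and Tmem41b (each 0.94), and for Mpo Cd200r4 (0.93), Kdsr (0.90) and Zbtb16 (0.89). For Elane they were Lamp2 (0.87), Agpat5 (0.86) and Stx12 (0.85), and for Ctsg Kcnk12 (0.87), Cebpg (0.85) and Cript (0.84). For Csf3r, Ltf, Camp and Ngp the closest were Synj1 (0.95), Egr3 (0.94), Acot8 (0.91) and Casp8 (0.90). None of the genes named by this rule was another member, but Ltf, Camp and Ngp lay below the median level and could not be named. With so many genes and 12 arrays in 4 groups, values of this height are a description only.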

How the data were processed

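RNA of sorted GFP-positive cells was amplified, labelled with biotin and hybridised to 15 arrays, 1 per sample, per the labels' protocols. The deposited values were taken to be log2 probe set levels from their range. RMA and mm9 are named, with no role, per the submitters' processing notes; the sources used here give no background correction or filter. The platform's annotation pairs 34958 probe sets with 1 symbol and 932 with several (named from none of these), and does not list 9211.

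All 45101 probe sets were fitted, with no filter and no further normalization, by lmFit and eBayes of limma 3.58.1 (R 4.3.3) on 12 arrays, with 8 residual degrees of freedom and the genotype as the only term. Two-sided p-values were Benjamini-Hochberg adjusted over all probe sets within each of 6 comparisons (each mutant genotype with wild type, each pair of mutant genotypes). A call needed an adjusted p below 0.05. The method was tested on simulated data.

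Members and lists were chosen with earlier results of these data known. Of 147 list genes, 127 had a probe set. Members were always named; Apc, Axin2, Kit, Ly6a and Cd34 served as checks; from other lists, up to 4 genes per comparison past the threshold were to be named, by lowest p; of the lymphoid and dendritic lists only Il7r and Ccr9 are named, the rest given by counts. A list member counts as risen or fallen where any of its probe sets passed, and medians use its probe set with the highest mean. Likeness used the 3 genes of highest Pearson r per member. Plppr3, Mcpt8, Ms4a2, Ctsc, Cst7, Cebpa and Gfi1 lie outside this rule and were named after their values were seen. Alternatives covered all 6 wild-type arrays, the replicate number as a block, a filter on level, quantile normalization, eBayes with trend and robust options, only the groups compared, 1 probe set or the mean of the probe sets per gene, sex type as a covariate, and each array left out in turn.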

Additional observations from a re-analysis of the deposited data

Results flagged for a closer look

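Of the 9 member genes, 1 had a wild-type array that stood apart from the other 5. Ltf was highest on wild-type array 6, at 5.87, and the gap to the next array was 0.66 of the group's range, above Dixon's critical value for 6 samples. Wild-type arrays 1 to 3 hold equal values for Ltf, which narrows the rest of the group. Chance flags about 1 in 20 groups, and 9 were looked at.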

How the results depend on the processing

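Each of 57 single-gene values was recomputed under up to 21 alternatives, and 0 values that passed the test changed sign. The direction of Prtn3 in 15lox/1638N held in all of them, from 0.38 to 0.44, and that of Ms4a3 from 0.62 to 0.89, while 12 and 6 of the 21 left the adjusted p above 0.05. The 2 of 9 members that passed there became 1 with quantile normalization, 1 on only the groups compared, 0 with sex type as a covariate, and 0 to 2 without 1 array (0 without wild-type 4 or 6 or 15lox/1638N 1 or 2, and 1 without wild-type 5, 15lox/15lox 1 or 2, 15lox/1572T 1 or 15lox/1638N 3). Signals of Ltf, Camp and Ngp near background limit what can be seen of the late genes, and 3 arrays a group limit all values.

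Counts of probe sets past the threshold moved by over 1.5 times as follows, and the cause was not tested. With all 6 wild-type arrays the counts were 1951 (674 in the fit reported) for 15lox/15lox, 3912 (623) for 15lox/1638N and 283 (13) for 15lox/1572T against wild type, and 220 (84), 697 (451) and 157 (77) between 15lox/15lox and 15lox/1638N, 15lox/15lox and 15lox/1572T, and 15lox/1638N and 15lox/1572T. Members called were then 2 in 15lox/1638N against wild type, 0 against 15lox/1572T, and 1 in each of the other comparisons. With only probe sets above the median level the counts were 438 for 15lox/15lox and 7 for 15lox/1572T against wild type, 26 between 15lox/15lox and 15lox/1638N and 268 between 15lox/15lox and 15lox/1572T. With trend and robust options they were 21 for 15lox/1572T and 133 between 15lox/15lox and 15lox/1638N, with 1 member called in 15lox/15lox (Prtn3) and in each of its comparisons with a hypomorphic genotype (Ms4a3). On only the groups compared they were 1135 for 15lox/1638N, 1 for 15lox/1572T, and 2, 255 and 13 between mutant genotypes. With 1 probe set per gene 15lox/1572T had 20. With that choice, or with the mean of a gene's probe sets, 1 member (Ms4a3) was called in 15lox/15lox against 15lox/1638N and against 15lox/1572T, and the mean also gave 1 (Prtn3) in 15lox/15lox. With sex type as a covariate they were 346 for 15lox/15lox, 392 for 15lox/1638N and 52 between these.

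Without 1 array, the counts ran from 387 to 753 for 15lox/15lox, 159 to 882 for 15lox/1638N and 7 to 25 for 15lox/1572T against wild type. The arrays whose removal moved a count by over 1.5 times were wild-type 4 (387), 5 (391) and 6 (442) and 15lox/15lox 2 (449) for 15lox/15lox. For 15lox/1638N they were wild-type 4 (159), 5 (231) and 6 (231) and its own 1 (232) and 2 (220). For 15lox/1572T they were wild-type 4 (8) and 5 (7), 15lox/15lox 2 (7), 15lox/1638N 1 and 2 (7 each) and its own 3 (25). Between mutant genotypes they ran from 24 to 185, 329 to 496 and 39 to 89 in the order above, with 0 to 1 members called in the first and in the second. In the first these were wild-type 4 (52) and 5 (54), 15lox/15lox 1 (36) and 2 (49), and 15lox/1638N 1 (36), 2 (24) and 3 (185), and in the last 15lox/1572T 1 (39).

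The replicate numbers of the labels were used as a block in other fits. Of 9 pairs of mutant arrays with the same number, 6 deviated together with r over 0.1 (range -0.07 to 0.38), against -0.35 to 0.20 for other pairs, and 7 of the 9 mutant arrays correlated best with an array of their own number. This hints at a shared deviation, but not every pair exceeded 0.1 and the labels name no shared source, so the number is not taken as a pairing. With the replicate block and all 6 wild-type arrays, 1045 probe sets and 1 member (Ms4a3) passed in 15lox/1638N, where Prtn3 had an adjusted p of 0.053, and 31 probe sets in 15lox/1572T. With the replicate block on the 12 arrays, 39 passed between 15lox/15lox and 15lox/1638N and 33 between 15lox/1638N and 15lox/1572T.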
